A study of Mus musculus with 20 samples.

Results

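Border-associated macrophages are the resident macrophages of the brain's edges, the meninges, the sheaths around vessels and the choroid plexus. They share an origin and many genes with microglia, the macrophages of the parenchyma, but carry scavenger receptors and C-type lectins that microglia lack, and a part of them presents antigen on MHC class II molecules. In single-cell libraries of the mouse dentate gyrus (DG), the hippocampal region that keeps adult stem cells, 85 of 39117 barcodes were taken as such cells. They were chosen by their own UMIs (single captured transcripts): at least 8 UMIs over Pf4, Mrc1, Ms4a7 and F13a1, under 3 over the microglial genes Tmem119 and P2ry12, and under 5 each over the endothelial pair Cldn5 and Flt1 and the astrocytic pair Aldoc and Slc1a3, in barcodes with at least 800 genes and up to 20% mitochondrial UMIs. They were set beside 20054 microglia-gate cells, which held at least 20 UMIs over C1qa, Cx3cr1, P2ry12 and Tmem119 and under 3 over the 4 genes of the macrophage gate.

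The mice were C57Bl6/JRj of both sexes, with no transgene or treatment, and were young (3 months), middle-age (9 to 11 months) or old (16 to 21 months). The DGs of 5 young, 6 middle-age and 6 old mice were pooled by age, freed of myelin and sequenced with the 10x 3′ assay, as 1 library for each younger pool and 2 for the old pool. Both old libraries hold the same animals, so no spread between animals can be had from the cells and no test was made between ages. The second assay was Visium, which captures RNA from coronal brain sections on spots that each cover several cells. It gave 16 areas from 12 further mice, 4 per age, with 4 young, 4 middle-age and 8 old areas. Areas therefore share mice and p-values over them are too small. The Visium mice were perfused, while the DG cells came from mice that were not.

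The 4 libraries held 6454 to 14274 barcodes, of which 5803 to 13261 passed the filter. Any pair of libraries shared 14 to 54 barcode sequences, 197 over all pairs. Only 1 of these belonged to a border macrophage, and none did in both libraries. The 85 cells carried a median of 4449 UMIs and 1813 genes, against 5654 UMIs in microglia-gate cells, and their median depth differed by age: 6876 UMIs in young, 4369 in middle-age, and 3709 and 3902 in old 1 and old 2 cells. Xist without Y-linked genes was found in 40 of them, and Y-linked genes without Xist in 21. The gate floor was reached by 105 barcodes, and 17 of these were lost to microglial, 2 to endothelial and 1 to astrocytic genes. The loss to microglial genes was uneven, at 4 of 35 young, 11 of 38 middle-age, 1 of 18 old 1 and 1 of 14 old 2 barcodes. Just inside the floor, with 8 to 10 UMIs, were 9 cells. Just outside, with 5 to 7 UMIs, were 15 barcodes, and 13 of those had more UMIs of 10 monocyte markers than of the gate genes.

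The gate held 2 kinds of cell, and the label fits the larger one. In 77 cells the complement gene C1qa had 7 to 116 UMIs, the lipid carrier Apoe 31 to 863 UMIs, and the 10 monocyte markers together 0 to 9 UMIs. All 4 gate genes were found in 63 of these 77. Pf4, a chemokine of platelets and macrophages, was found in 77, the mannose receptor Mrc1 in 76, the membrane protein Ms4a7 in 73 and the clotting factor chain F13a1 in 67. The other 8 cells, 6 young and 2 from old 1, had 64 to 184 monocyte UMIs against 8 to 12 gate UMIs, and 7 of them held no C1qa UMI. F13a1, which monocytes also express, gave 7 to 12 UMIs in each of these 8 and was the only gate gene found in 6. Since these cells went against the label, and were picked out after seeing the data, values that rest on them are given with and without them.

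Border macrophages were a smaller share of the barcodes in the older pools. Young barcodes held 30 of 5803, which is 0.517% (exact 95% interval 0.349 to 0.737). The middle-age library held 27 of 10364, or 0.261% (0.172 to 0.379), old 1 held 15 of 13261, or 0.113% (0.0633 to 0.186), and old 2 held 13 of 9689, or 0.134% (0.0715 to 0.229). The young share was above the others, but its interval overlapped that of middle-age, and the intervals of the old libraries overlapped each other. All such intervals cover counting error only and not the spread between mice. The gate asks for a fixed number of UMIs and genes, which deeper cells reach more easily, and the young cells were the deepest. The part of depth in the shares was not tested. The old share was 0.236 times the young share (0.136 to 0.409) and the middle-age share 0.504 times (0.288 to 0.877). Without the 8 monocyte-gene cells the shares were 0.414 (0.265 to 0.615), 0.261, 0.0980 and 0.134%, and the interval of the ratio of middle-age to young then included 1.

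The ratio depends on what the cells are counted against, because microglia-gate cells were 31.7% of the young barcodes and 51.2 to 57.3% of the others. Per 100 microglia-gate cells there were 1.63 border macrophages for young, 0.454 for middle-age, 0.205 for old 1 and 0.262 for old 2. Per 100 astrocyte-gate cells, which held at least 20 UMIs of Aldoc and Slc1a3, the numbers lay closer together, at 2.15, 1.53, 0.926 and 0.870. Astrocyte-gate cells also had to hold under 3 UMIs over C1qa, Cx3cr1, P2ry12 and Tmem119 and under 5 over Cldn5 and Flt1. The order of the ages was the same on the 3 scales. With 1 pool per age, a difference between pools cannot be told apart from one between ages.

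**Figure D1:**
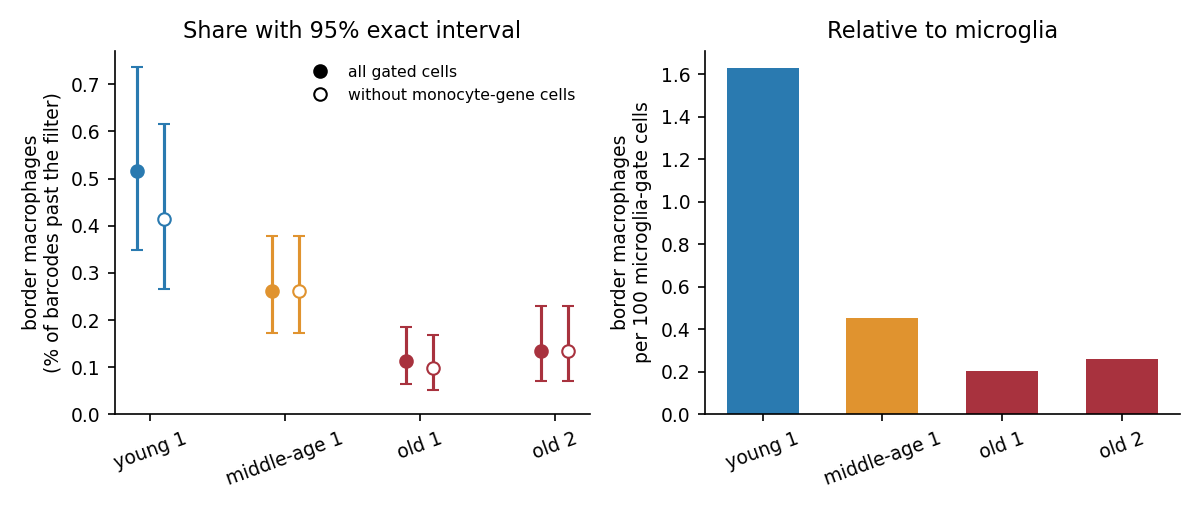
Border macrophages in each scRNA-seq library as a percent of barcodes past the filter, with exact 95% binomial intervals (counting error only). The young library stands highest at 0.517%, and the old libraries lowest at 0.113 and 0.134%.

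The gate genes themselves describe the choice and are no finding. Pf4 stood at 2445 CPM (UMIs per 1000000 UMIs summed) in the summed young cells, 2434 in middle-age, 2377 in old 1 and 3147 in old 2. Mrc1 stood at 1658, 1860, 2463 and 2187 CPM. Pf4 was found in 0.0797% and Mrc1 in 0.0638% of astrocyte-gate cells, at a median depth of 4635 UMIs. That gate left out barcodes with 3 or more UMIs over C1qa, Cx3cr1, P2ry12 and Tmem119. These shares can therefore understate free RNA in the droplets.

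Beyond the gate, many receptors for uptake were higher in border macrophages than in microglia. Both gates fixed this contrast, so it is described and not tested. Of 1882 genes with at least 100 CPM in either summed cell type, 86 were at least 4 times as high in border macrophages in all 4 libraries (4.57%) and 53 at least 4 times as low (2.82%), with ratios taken on CPM + 10, which understates the change of low genes. Of the 35 genes listed as border macrophage genes outside the gate, 28 were tested, 24 were past the 4-fold higher and none past the 4-fold lower. Their median log2 ratio was 4.13, against 0.02 over all genes tested.

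Among the receptors, Cd209f, a C-type lectin, had 436 CPM in the young, 296 in the middle-age, 741 in the old 1 and 710 in the old 2 cells, against 0.0563 CPM in all microglia-gate cells. Lyve1, a receptor for hyaluronan, had 271, 194, 241 and 345 CPM against 0.0161, which is 2 UMIs in all microglia-gate cells. Cd163, which takes up haemoglobin bound to haptoglobin, had 311, 321, 310 and 192 CPM against 0.0402. These levels were high in every library, with no overlap with microglia in any. Folr2, a folate receptor, stood at 276 CPM over all border macrophages against 0.330, and the lectin Clec10a at 236 against 0.105. Cd209b, a relative of Cd209f, had 140 CPM and no UMI in microglia-gate cells, so it was at least 5808-fold higher, taking 3 UMIs over all those cells as the floor. Dab2, an adaptor for endocytosis, stood at 1142 CPM against 8.69, and Stab1, a scavenger receptor, at 645 against 103. Of 19 scavenger and uptake receptors tested, 11 were past the 4-fold higher and none past the 4-fold lower, with a median log2 ratio of 3.91.

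The same receptors were patchy from cell to cell. Of the 85 cells, Dab2 was found in 75 and Stab1 in 65, but Cbr2, a carbonyl reductase, in 48, Cd163 in 46, Folr2 in 40, and Lyve1 and Cd209f in 26 each. Siglec1, a sialic acid receptor of macrophages, was found in 8. These are counts of cells with at least 1 UMI, and at 1279 to 12415 UMIs per cell a gene with a low level can be missed. The background was far lower, with Lyve1 in 0.00997% of microglia-gate cells and in none of 6270 astrocyte-gate cells. Both of these gates capped macrophage genes, so they can understate the background.

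Several secreted factors were higher too, though secreted factors were not counted as a list. Wfdc17, a small secreted protein, had 1682 CPM in the middle-age, 1171 in the old 1 and 2341 in the old 2 cells, and a lower level, from 200 UMIs, in the young, against 1.01 in microglia-gate cells. Ccl7, a chemokine that draws monocytes, had 591, 1640, 2119 and 672 CPM against 0.901. Bmp2, a bone morphogenetic protein, had 496, 304, 500 and 269 CPM against 0.0965. The first 2 varied more than 2-fold between libraries, and for Ccl7 the old libraries did so between themselves. Ccl8, another monocyte-drawing chemokine, had 140, 583, 138 and 192 CPM against 0.0161. Cxcl2, a chemokine for neutrophils, stood at 2184 CPM over all border macrophages against 22, and Ccl12 at 2021 against 279. Of 18 chemokines and cytokines tested, 7 were past the 4-fold higher and 1, Il1a, past the 4-fold lower.

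Levels of Ifi207 and Ifi203, interferon-inducible genes of the HIN-200 family, were also higher, at 822 CPM against 2.15 and at 418 against 0.901. Within the interferon response list 5 of 14 genes tested were past the 4-fold higher (Ifitm3, Ifitm2, Bst2, Ifi27l2a and Ifi204), at a median log2 ratio of 1.89. Without the 8 monocyte-gene cells 5 of 13 were, at a median of 1.63. The list summed to 8378 CPM in young and 7011 in old 1 cells, and without those 8 cells to 4749 and 5272. Cybb, the catalytic part of the phagocyte oxidase, stood at 500 CPM against 1.65, and Clec12a, an inhibitory lectin, at 154 against 0.121. The lysosomal and lipid genes were led by Apoe, at 40210, 45484, 31870 and 53664 CPM in the 4 libraries against 1077 in microglia-gate cells, and Lyz2, lysozyme, stood at 9361 CPM against 255. Of 18 genes of this list tested, 3 were past the 4-fold higher (Apoe, Lyz2 and Plin2) and 1 past the 4-fold lower (Cd9), and the median log2 ratio was 0.51. For Lyz2 the 8 monocyte-gene cells held 129 to 304 UMIs each, against 3 to 87 in the other 77.

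Part of the homeostatic program of microglia was lower in border macrophages. Of its 25 genes tested, 13 were past the 4-fold lower and none past the 4-fold higher, and the median log2 ratio was -2.64. Slc2a5, a fructose transporter, had no UMI against 286 CPM in microglia-gate cells, so it was at least 40.9-fold lower. The adhesion receptor Adgrg1, also without a UMI, was at least 37.4-fold lower, and Lrba and Lrrc3 at least 19.2-fold and 17.1-fold lower. Sparc, a matrix protein that microglia secrete, had 55.1, 16.9, 51.7 and 19.2 CPM against 4019. Further genes low in all 4 libraries were Ecscr (2.34 CPM against 281), Plxdc2 (11.7 against 504), Ldhb (16.4 against 657), Csmd3 (2.34 against 160) and Golm1 (23.4 against 486).

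Other groups lay closer together. C1qa stood at 5955 CPM against 7949, and of 9 further complement genes tested none was past 4-fold in all 4 libraries, with a median log2 ratio of -0.29. Without the monocyte-gene cells 1 of 9, C4b, was past the 4-fold higher (131 CPM against 3.95 with all cells), and the median was -0.13. In MHC class I (8 tested, median 0.43) and the immediate early and heat shock genes that dissociation can induce (20 tested, median -0.00) no gene was past 4-fold. Of the 15 transcription factors tested, 1 was past the 4-fold lower (Sall1, which defines microglia, at 7.01 CPM against 215) and the median was -0.05, and Maf, a factor of tissue macrophages, stood at 923 CPM against 441. Iron and haem handling had 3 of 10 past the 4-fold higher, which were Cd163, the biliverdin reductase Blvrb (549 CPM against 73.6) and the copper oxidase Cp (185 against 2.57). Mki67, a mark of dividing cells, had no UMI in any of the 85 cells, which sets its level below the floor of 7.01 CPM, with 10.8 CPM in microglia-gate cells. Markers of cells that border macrophages touch were low over all libraries: 11 fibroblast markers summed to 107 CPM, 10 endothelial markers to 39.7 CPM and 10 neuronal markers to 248 CPM. The neuronal sum was uneven, at 145 CPM in young, 245 in middle-age, 775 in old 1 and 57.6 in old 2 cells. In old 1 it was near that of microglia-gate cells (753).

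**Figure D2:**
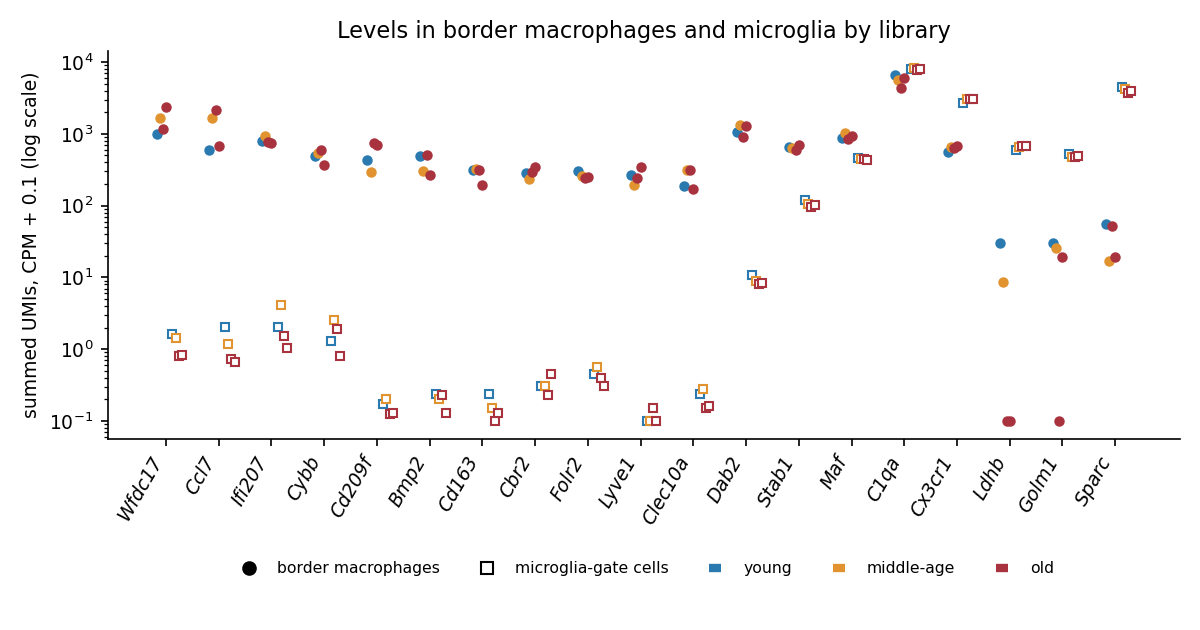
Summed UMIs of genes in border macrophages (filled circles) and microglia-gate cells (open squares) of each library, in CPM + 0.1 on a log scale. The uptake receptors and secreted factors shown lie above microglia in all 4 libraries, and Ldhb, Golm1 and Sparc far below.

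MHC class II genes, which present peptides of engulfed proteins to CD4+ T cells, set a part of the border macrophages apart. H2-Aa and H2-Ab1 encode the chains of one class II molecule, H2-Eb1 a chain of another, and Cd74 the invariant chain that guides them to the endosome. The promoters of 2 of these genes are shown because the genes were high together in the same cells. Both hold the Y box, a motif of class II promoters searched as CTGATTGG or its reverse complement CCAATCAG on both strands, in capitals here. It lies in 1346 of 32851 RefSeq promoters of 300 bases (4.10%), which run from 250 bases before to 50 after a gene's start. Of the 14 genes in the MHC class II list, 9 had a promoter and 4 of these the motif, the other two being H2-Eb2 and H2-Oa. H2-Ab1 and Cd74 are named only. The build is GRCm38.p6, at chr17:34287774-34288073 on the minus strand for H2-Aa, with the motif starting 51 bases before the gene, and chr17:34305617-34305916 on the plus strand for H2-Eb1, 62 bases before. A match describes the letters and shows no binding.
H2-Aa: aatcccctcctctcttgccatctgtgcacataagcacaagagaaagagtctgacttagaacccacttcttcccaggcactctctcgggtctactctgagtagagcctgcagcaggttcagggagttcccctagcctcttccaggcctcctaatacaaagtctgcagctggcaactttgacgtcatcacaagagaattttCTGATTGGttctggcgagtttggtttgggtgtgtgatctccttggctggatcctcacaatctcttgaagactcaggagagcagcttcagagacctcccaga
H2-Eb1: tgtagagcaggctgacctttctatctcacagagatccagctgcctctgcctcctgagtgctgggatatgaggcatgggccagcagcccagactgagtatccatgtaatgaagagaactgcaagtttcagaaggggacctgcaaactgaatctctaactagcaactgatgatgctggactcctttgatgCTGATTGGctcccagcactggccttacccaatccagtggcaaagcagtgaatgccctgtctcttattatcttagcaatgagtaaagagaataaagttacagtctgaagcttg

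In the cells without the monocyte profile, MHC class II UMIs covered a wide range, from 0 to 269 for H2-Aa, H2-Ab1 and H2-Eb1 together in the middle-age library. Of the 77, 12 held 10 or more of these UMIs, and each of these 12 had all 3 genes and Cd74. H2-Aa ranged from 5 to 101 UMIs in them (median 32.5) and Cd74 from 20 to 197. Of the other 65 cells, H2-Aa was found in 3, with at most 1 UMI each, H2-Ab1 in 9 and H2-Eb1 in 6. The cut at 10 was chosen after seeing the data, and it largely sets these counts. Background was low but not nil: H2-Aa was found in 0.683% of microglia-gate and 0.0797% of astrocyte-gate cells, and Cd74 in 13.3 and 0.144%. Since both of these gates capped macrophage genes, the background can be understated.

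The 12 cells and the rest were near each other in depth and in C1qa. Pf4 had a median of 8.50 UMIs in them and 12 in the other 65, C1qa 26.0 and 28.0, and all genes together 4413 and 4337 UMIs. Of the 10 monocyte markers, Ccr2 was found in 1 of the 12, with 4 UMIs, and the other 9 had no UMI in any. The lectins were found in a smaller share of the 12. Cd209a, a lectin of the DC-SIGN family, was found in none of the 12 and in 22 of the 65 (33.8%). Cd209f was found in 1 of 12 (8.33%) against 25 of 65 (38.5%). Clec4n, a receptor for fungal sugars, was found in 3 against 37, but in old 1 in 1 of 3 against 2 of 10. Lyve1 was found in 2 (16.7%) against 24 (36.9%), but in the middle-age library, which held 7 of the 12, it was found in 2 of 7 and 6 of the other 20. Cd163 was found in 8 of 12 (66.7%) and 38 of 65 (58.5%). The cells come from 4 libraries and the MHC class II cells from different ones in unequal number, so these shares are descriptions.

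The lectins Cd209f and Cd209a were often found in the same cells, and other lectin pairs were not counted. The genes are related in sequence, and reads could be split between them. Of the 26 cells with Cd209f, 17 also held Cd209a (65.4%), against 5 of the cells without it (9.80%). By library this was 2 of 6 young, 6 of 8 middle-age, 4 of 6 old 1 and 5 of 6 old 2 cells with Cd209f. For Lyve1, which is no such lectin, the libraries differed. Cd209a was found in 12.5% of young cells with Lyve1 and 12.5% of those without, in 37.5 and 26.3% in middle-age, and in 83.3 and 14.3% in old 2. In old 1 it was found in 2 of 4 cells with Lyve1 and 3 of 9 without.

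By age, the MHC class II cells were 1 of the 24 young, 7 of the 27 middle-age, 3 of the 13 old 1 and 1 of the 13 old 2 cells without the monocyte profile. Since young cells were deeper, all cells were also thinned to 2000 UMIs, leaving out 3 shallower ones, and counted at 5 or more class II UMIs. Of the young cells 2 of 30 passed (6.67%, exact 95% interval 0.818 to 22.1), of the middle-age cells 8 of 26 (30.8%, 14.3 to 51.8) and of the old cells 4 of 26 (15.4%, 4.36 to 34.9). Without the monocyte-gene cells 1 of 24 young cells (4.17%, 0.105 to 21.1) and 4 of 24 old cells (16.7%, 4.74 to 37.4) passed. Not thinned, the shares of all cells were 10.0, 33.3 and 14.3%. The 3 intervals overlapped. Among microglia-gate cells the share was 0 to 0.193% per library.

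The summed level of these genes was higher in both older pools, and it rested on few cells. H2-Aa had 47 UMIs in the young, 311 in the middle-age, 96 in the old 1 and 73 in the old 2 cells, or 235, 2629, 1654 and 1401 CPM. The old level was 6.51 times the young (4.69 to 9.20), and without the monocyte-gene cells, which leaves 10 UMIs in the young, 25.1 times (13.3 to 53.3). Of those 10 young UMIs 9 came from 1 cell, and the intervals leave out the spread between cells. H2-Ab1 was 4.41 times as high (3.20 to 6.16; 49.6 without those cells) and H2-Eb1 8.45 times (5.40 to 13.7; 33.7 without). In old 2 a single cell held 171 class II UMIs and the next no more than 1, and in old 1 the highest cell held 173. Microglia-gate cells had the same sign, with H2-Aa at 4.43 times (2.60 to 8.19), H2-Ab1 at 1.80 times (1.45 to 2.26) and H2-Eb1 at 6.67 times (3.01 to 18.4) the young level.

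Outside MHC class II, the gene with the largest ratio among those higher in old cells was Cd209a. It had 9 UMIs in the young, 37 in the middle-age, 39 in the old 1 and 37 in the old 2 cells, which is 45.1, 313, 672 and 710 CPM. The level in old was 15.3 times that in young cells (7.65 to 34.7) and in middle-age 6.94 times (3.29 to 16.3). All 3 older libraries lay above the young one, and no cell held more than 13.1% of the UMIs. It was found in 3 of 30 young, 8 of 27 middle-age and 12 of 28 old cells, although the old cells were the shallower. In microglia-gate cells it had 3 UMIs in all, so no ratio by age is given there. Without the monocyte-gene cells its ratio was 12.5 (6.26 to 28.5).

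Cd209a was 1 of 9 genes at least 2 times as high in both old libraries as in the young, of 1619 tested with at least 30 UMIs (0.556%), and 49 were at least 2 times as low (3.03%). The count of lower genes depended on depth and cutoff. It was 10 with cells thinned to 2000 UMIs, and a minimum of 100 UMIs gave 4 higher and 9 lower. With 1 pool per age no error between animals is known. The other genes on the high side were H2-Aa, H2-Ab1, H2-Eb1, Klf2, Zbtb20, Fgd4, Hnrnpdl and Cd209b. Klf2, a factor known to restrain macrophage activation, had 67, 88, 48 and 69 UMIs, a level 3.16 times the young (2.32 to 4.34), while in microglia-gate cells the ratio was 0.760. Cd209b had 10, 15, 7 and 28 UMIs, a ratio of 6.34 (3.07 to 14.4). Zbtb20, a transcription factor, stood at 4.98 times and Fgd4, a regulator of the actin skeleton, at 3.99 times the young level. Without the monocyte-gene cells the ratios were 4.02 for Klf2, 5.26 for Cd209b and 4.13 for Fgd4, while Zbtb20 and Hnrnpdl, at 4.13 and 2.47 times, each fell just under 2-fold in 1 old library (0.99 on the log2 scale) and were lost. The 28 old cells hold only 110170 UMIs, so that 1 UMI is 9.08 CPM there.

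The genes furthest on the low side were monocyte markers. Chil3, a chitinase-like protein of monocytes, had 132 UMIs in young cells and none in any older library, at least 24.3-fold lower. Vcan, a proteoglycan of monocytes, had 108, 7, 0 and 0 UMIs, at least 19.9-fold lower in old. The 10 monocyte markers summed to 3823 CPM in young, 110 in middle-age, 2377 in old 1 and 19.2 in old 2 cells, against 18.3 to 25.1 in microglia-gate cells, and without the 8 cells to 61.7, 110, 0 and 19.2. With all cells, Clec4d, Thbs1 and Cxcl10 were also low in old, at 33, 78 and 60 UMIs in young cells, and 84.1% of the Cxcl10 UMIs came from 1 cell. Without the 8 cells these genes were not among the 10 furthest on the low side.

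Leaving out the 8 cells, 1182 genes were tested, 11 were higher and 16 lower in both old libraries, and 7 of the 9 higher but 10 of the 49 lower were the same genes. Socs3, which restrains cytokine signals, remained, with 56 UMIs in young, 26 in middle-age, 3 in old 1 and 4 in old 2 cells, a ratio of 0.188 (0.0723 to 0.413), against 0.806 in microglia-gate cells. With all cells it was 0.272 (0.119 to 0.551). Jdp2, a repressor of the AP-1 family, had 27, 1, 0 and 0 UMIs, and the chemokine Ccl9 29, 2, 1 and 1. Id2, an inhibitor of helix-loop-helix factors, had 27, 25, 0 and 2, so that its middle-age level was near the young one. Socs3 is in the list of dissociation genes, of which it was the single one of 19 tested past 2-fold, and the median of that list was 0.18 with all cells and -0.04 without the 8.

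The identity genes did not move as a group. Of the 27 border macrophage genes outside the gate that were tested by age, 1 was higher (Cd209b) and 1 lower (Ms4a6c), with a median log2 ratio of 0.10, against -0.08 over all genes tested. Without the monocyte-gene cells 1 of 27 was higher, the lower call was lost, and the median was -0.09, against -0.06 over all genes. The medians with and without those cells were 0.03 and 0.03 for scavenger receptors, 0.09 and -0.09 for iron and haem handling, and -0.07 and -0.17 for transcription factors. For the interferon response the median was -0.13 with and 0.41 without the monocyte-gene cells. For MHC class II it was 1.25 (3 of 7 higher) and 3.56 (4 of 6 higher). Of 16 chemokines and cytokines 4 were lower with all cells (Ccl6, Ccl9, Cxcl10 and Il1b) and 1 of 14, Ccl9, without the 8.

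**Figure D3:**
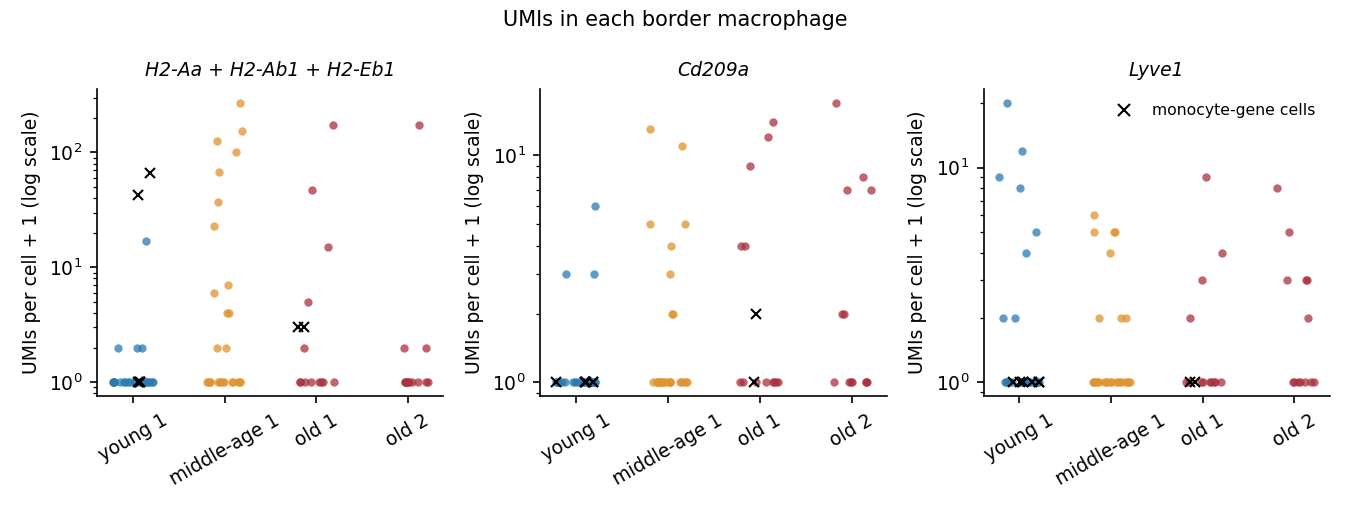
UMIs per border macrophage (+ 1, log scale) of the 3 MHC class II genes, Cd209a and Lyve1, by library, with the 8 monocyte-gene cells as crosses. MHC class II UMIs run from 0 to 269 in the middle-age library, and Cd209a is found in 3 of 30 young but 12 of 28 old cells.

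Visium allowed a test of the same genes, on samples that the gate did not use, in whole coronal sections and not in the DG alone. UMIs were summed over each area and compared by edgeR's quasi-likelihood test with Benjamini-Hochberg adjustment over 17396 genes. Of all genes tested, 6.21% rose and 6.87% fell from young to old, and 3.40% rose and 4.18% fell from young to middle-age. Both contrasts share the 4 young areas. In a summed area, fewer cells of a type and less RNA per cell cannot be told apart.

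Of the 4 gate genes, 2 fell from young to old and the same 2 from young to middle-age. Mrc1 had 2.14, 2.64, 2.43 and 1.92 normalised CPM in young areas, 1.33, 1.66, 1.24 and 1.81 in middle-age areas, and 1.18 to 1.68 in old areas (median 1.51). Every young area lay above every other area. The log2 change was -0.64 ± 0.13 (SE, adjusted p = 0.00461) in old and -0.59 ± 0.15 (adjusted p = 0.0257) in middle-age. The old change passed without any single area, and the middle-age one was lost without young 2 (0.0873), young 3 (0.0627), middle-age 1 (0.0866) or middle-age 3 (0.0726).

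F13a1 had 1.25, 1.35, 1.21 and 1.02 normalised CPM in young areas, 0.792, 0.906, 0.604 and 0.818 in middle-age areas, and 0.668 to 1.25 in old areas (median 0.787). Young and middle-age areas did not overlap, but 1 old area reached the young level. Its log2 change was -0.51 ± 0.16 (adjusted p = 0.0395) in old and -0.62 ± 0.18 (adjusted p = 0.0481) in middle-age, and neither was firm. The old call was lost without young 1 (0.0985), young 2 (0.126), young 3 (0.0784), middle-age 1 (0.0512) or old 1, 3, 4, 6, 7 or 8 (0.0507 to 0.0656), and without the filter on low counts (0.06). The middle-age call was lost in 13 of 16 such fits, at 0.0505 to 0.127, namely without any young area but young 4, any middle-age area, or old 1, 2, 3, 6, 7 or 8, and without the filter (0.0773).

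Pf4 had 4.11, 3.1, 3.71 and 2.77 normalised CPM in young areas, 2.18, 2.28, 2.68 and 2.82 in middle-age and 1.99 to 3.39 in old areas (median 2.32). The groups overlapped, and the log2 change in old of -0.46 ± 0.15 missed the threshold (adjusted p = 0.0552). It passed without young 4 (0.04), old 3 (0.0464) or old 8 (0.0213), by DESeq2 (log2 -0.45, 0.0331), and with the replicate number as a block in areas 1 to 4 (log2 -0.59, 0.0265). Ms4a7 had an adjusted p of 0.682, at a log2 change of -0.17. From middle-age to old, where 2.53% of all genes rose and 1.78% fell, the changes of Mrc1 (-0.05, 0.901) and F13a1 (0.11, 0.768) missed the threshold, as did those of Pf4 (0.996) and Ms4a7 (0.888).

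Fibroblast genes fell beside the gate genes. Col1a1, a collagen chain of the fibroblasts that share the brain's borders, had 3.87, 3.09, 5.43 and 3.31 normalised CPM in young areas, 1.61, 1.53, 2.41 and 2.27 in middle-age areas and 1.43 to 2.44 in old areas, with no overlap of young and other areas. Its log2 change was -0.97 (adjusted p = 0.00214) in old and -1.0 (0.00885) in middle-age. Of 11 fibroblast markers 4 fell in old and 4 in middle-age (Col1a1, Col1a2, Col3a1 and Igf2), with medians of -0.48 and -0.68 against -0.00 over all genes tested. Col3a1 fell by 1.50 and by 1.49 on the log2 scale. Igf2 in middle-age (-0.86, 0.0408) was lost without any 1 of the 4 young areas, middle-age 1 to 3, or old 7 or 8 (0.0515 to 0.113). Col1a2 (-0.76, 0.00153) fell in old as well, as did Slc6a13, a transporter of meningeal fibroblasts (-0.67, 0.0349), which was lost without young 1, young 3 or old 2, 4, 6 or 8 (0.0543 to 0.146). Of 8 choroid plexus markers none was called, at medians of -0.74 in old and -1.36 in middle-age. Of 10 endothelial markers 1 fell in each contrast, at medians of -0.04 and -0.13. The endothelial gene Cldn5, outside that list, had 54.6 to 68.7 CPM in young areas and 26.2 to 39.1 in the others. The part of fibroblasts, choroid plexus or vessels in the fall of the gate genes was not tested.

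Of the 33 border macrophage genes outside the gate tested, 3 rose and 4 fell in old, and the median was -0.01. Over all genes tested 6.21% rose and 6.87% fell. Calls this few do not set the list apart from other genes, and its members are described singly. The uptake genes Folr2 and Dab2 were among those that fell. Folr2 had 0.682, 0.73, 0.865 and 0.437 normalised CPM in young areas, 0.471, 0.499, 0.55 and 0.409 in middle-age areas and 0.285 to 0.488 in old areas (median 0.347), so that 3 of the 4 young areas lay above all old ones. Its log2 change was -0.88 ± 0.17 (adjusted p = 0.00402). Dab2 had 7.6, 8.78, 6.22 and 7.12 in young areas, 4.31, 5.36, 5.02 and 6.12 in middle-age and 4.25 to 6.83 in old areas (median 4.62), overlapping at 1 old area, with a change of -0.59 ± 0.12 (adjusted p = 0.0055). Both held without any single area.

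Nrp1, a receptor for semaphorins and VEGF that many other cells use, and Ctsc, a lysosomal protease, fell too. Nrp1 had 5.59 to 7.62 normalised CPM in young, 1.8 to 2.75 in middle-age and 2.74 to 5.65 in old areas, so that middle-age areas were the lowest. The log2 change was -1.49 (adjusted p = 9.5e-04) in middle-age and -0.58 ± 0.17 (0.039) in old, and from middle-age to old it rose by 0.91 (0.0131; 0.0585 without middle-age 1). The old call was lost without any 1 of the 4 young areas (0.0608 to 0.131) or old 1, 3, 5 or 6 (0.0508 to 0.0634). Ctsc changed by -0.32 ± 0.10 (0.0491) in old, lost in 11 of 16 such fits at 0.0537 to 0.162 (young 1, 2 and 4, middle-age 2 and 3, old 1, 3, 4, 5, 7 and 8) with the block (0.0534) and without the filter on low counts (0.0661). In middle-age it changed by -0.52 (0.0137; 0.0539 without middle-age 1), and Dab2 by -0.51 (0.041), lost in 8 of 16 at 0.0512 to 0.129 (young 1, 2 and 4, middle-age 1 to 3, old 6 and 8) and without the filter (0.0583).

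The genes that rose were lectins and a chemokine. Cd209a, counted here in the dendritic cell list, had 0.133, 0.22, 0.179 and 0.336 normalised CPM in young areas, 0.557, 0.725, 0.391 and 0.645 in middle-age areas and 0.535 to 1.07 in old areas (median 0.646). Every young area lay below every other area. The young values rest on 7, 16, 12 and 30 UMIs. The log2 change was 1.65 ± 0.25 (adjusted p = 7.3e-04) in old and 1.38 ± 0.28 (adjusted p = 0.00738) in middle-age. It was the 1 gene called of the 6 dendritic genes tested, in both contrasts.

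Cd209f had 0.436, 0.358, 0.641 and 0.392 normalised CPM in young areas, 0.621, 0.634, 0.568 and 0.976 in middle-age and 0.756 to 1.05 in old areas (median 0.954), with all old areas above all young ones. It rose by 1.02 ± 0.18 (adjusted p = 0.00224) in old, and in middle-age the change of 0.62 missed the threshold (0.0801). Cd209b rose by 1.59 ± 0.37 (adjusted p = 0.0107) in old, from 0.0569, 0.124, 0.119 and 0.0784 in young areas to 0.114 to 0.58 (median 0.266), with some overlap, and missed the threshold with the block (0.0516). In each young area Cd209b stood below Cd209a, so it rests on fewer UMIs still. The members of this lectin family are related in sequence, and reads could be split among them. Ccl8 rose by 1.60 ± 0.44 (adjusted p = 0.0245), from 0.227, 0.468, 0.164 and 0.157 to 0.212 to 1.31 (median 0.85), and was lost without young 1 (0.0705), young 3 (0.0726) or young 4 (0.0723). Its young values rest on 12, 34, 11 and 14 UMIs.

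Further genes of the cell type did not pass. Lyve1 had 1.04, 0.799, 0.433 and 0.168 normalised CPM in young areas, 0.214 to 0.32 in middle-age and 0.212 to 0.499 in old areas, which is a spread of young areas wider than the others, and its log2 change was -0.81 ± 0.37 (adjusted p = 0.161). Without young 4 it passed in old (0.0209) and in middle-age (0.0189). Cd163 changed by -0.01 (0.982), Stab1 by -0.00 (0.984), Clec10a by 0.06 (0.871) and Wfdc17 by 0.18 (0.524) in old. In middle-age 3 of the 33 fell, with a median of -0.21, where 4.18% of all genes tested fell. With the block 5 fell (Nrp1, Dab2, Ctsc, Maf and Mgl2).

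The main MHC class II chains did not pass a test by age in the areas. Of 12 genes of the list tested 3 rose in old, where 6.21% of all genes rose, and H2-Aa, H2-Ab1, H2-Eb1 and Cd74 were not among them. H2-Aa had 3.26, 1.58, 2.22 and 2.33 normalised CPM in young areas, 1.5, 1.25, 0.959 and 1.54 in middle-age and 0.766 to 4.12 in old areas (median 2.11). The young areas lay just above the middle-age ones, and the old areas overlapped both. Its log2 change was -0.09 ± 0.33 (adjusted p = 0.899) in old, that of H2-Ab1 -0.22 (0.72), H2-Eb1 -0.15 (0.724) and Cd74 0.14 (0.802). Those that rose were Cd86, a costimulator of T cells that microglia also express, by 0.55 ± 0.11 (0.0036), and H2-Oa and H2-Ob, which form a modulator of peptide loading, by 0.86 (0.00531) and 1.00 (0.0116; 0.0653 with the block). In middle-age H2-Aa changed by -0.83 (0.215) and Cd74 by -0.73 (0.204). The 5 monocyte markers tested had a median log2 change of -0.19 in old.

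**Figure D4:**
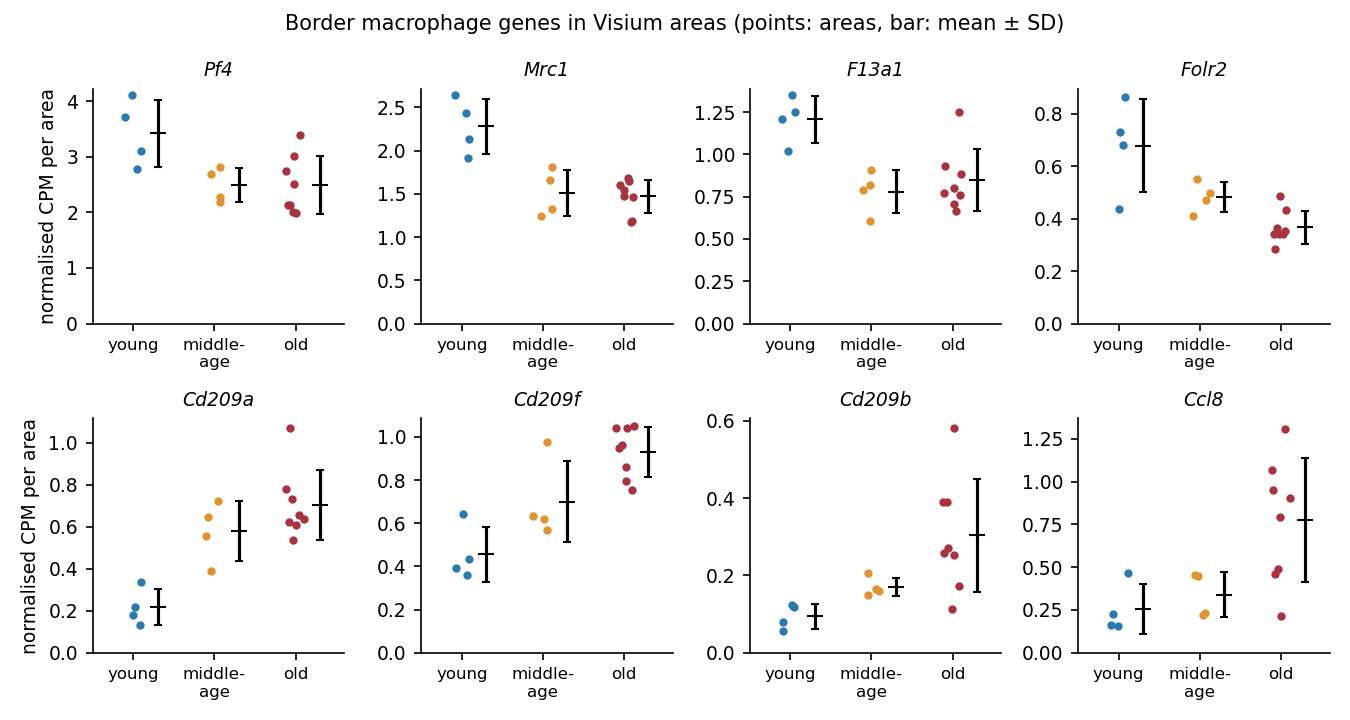
Normalised CPM of 8 genes in each Visium area (points), with mean ± SD for 4 young, 4 middle-age and 8 old areas. Mrc1 is highest in the young areas, and Cd209a and Cd209f lie higher in the old than in the young areas.

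Within sections, border macrophage UMIs lay in spots rich in fibroblast and vessel markers. Spots with at least 2 UMIs over Pf4, Mrc1, Ms4a7, F13a1, Cd163, Lyve1, Cd209f and Cbr2 numbered 1295 of 43134. They were 3.43 to 5.13% of the spots in young areas, 2.02 to 3.16% in middle-age and 1.98 to 3.56% in old areas. Depth differed by age, with area medians of 19618 to 27253 UMIs per spot in young, 15320 to 22338 in middle-age and 12658 to 21775 in old. A deeper spot reaches 2 UMIs more easily, and the part of depth in these shares was not tested. The median depth over areas was 18398 UMIs in marker spots and 19683 in spots with none, with the marker spots deeper in 6 of 16 areas. Marker lists were compared between both kinds of spot within each area, by an exact permutation test of signs over the 16 areas, two-sided, with p-values adjusted over 14 lists. Differences were taken on log2(CPM + 10), which shrinks those of lists with low levels.

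Fibroblast markers differed most, with a mean log2 difference of 3.13 ± 0.51 (SD, n = 16 areas, adjusted exact permutation p = 5.3e-05, 16 of 16 areas higher), at a median of 963 CPM in spots with and 107 CPM in spots without the UMIs. Before adjustment this was 3.1e-05, the smallest p that the exact permutation of 16 areas can give. Markers of the mural cells of vessels were higher by 2.18 ± 0.48 (694 against 138 CPM) and those of endothelium by 1.22 ± 0.27, both with the same p and in 16 of 16 areas. The 31 border macrophage genes not used to choose the spots were higher by 1.30 ± 0.30 (549 against 226 CPM), again in 16 of 16. That list includes Nrp1, which many other cells use, and which cells of the spots gave the RNA of the list was not tested. Choroid plexus epithelium was higher by 1.27 ± 1.06 in 15 of 16 areas (adjusted exact permutation p = 9.5e-05), a wide spread.

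The parenchyma differed less. Homeostatic microglial genes were higher by 0.24 ± 0.08 and astrocyte markers by 0.44 ± 0.08, both in 16 of 16 areas, and neuronal markers were lower by a mean log2 difference of -0.49 ± 0.13 in all 16, each at an adjusted exact permutation p of 5.3e-05. The microglial list summed to a median of 6107 against 5149 CPM, and which cells of the spots gave its RNA was not tested. Outside the list, Tmem119 had 24.6 against 17.3 CPM (16 of 16 areas higher) and P2ry12 28.5 against 26.9 (12 of 16). Markers of T and B cells were lower, at -0.34 ± 0.29, with 1 of 16 areas higher (adjusted exact permutation p = 3.4e-04). This list had a median of 22.1 CPM in spots with and 33.5 in spots without the UMIs. Only 5 of its 11 genes passed the filter on low counts in areas, and which cells gave its RNA was not tested. Red blood cell genes did not pass, at 0.39 ± 0.91 (adjusted exact permutation p = 0.110), and the call of oligodendrocytes (0.23 ± 0.37, 0.0248 by the same exact test) was lost with spots of at least 1 or of at least 3 UMIs. Neutrophil markers were higher by 0.19 ± 0.22 (adjusted exact permutation p = 0.00520), a call that held with spots of at least 1 UMI and was lost with at least 3 (0.0522). Their medians were 5.94 against 2.95 CPM, both under the 10 CPM added before the log. Dendritic cell markers, a list that holds Cd209a, were higher by 0.34 ± 0.31 in 13 of 16 areas (adjusted exact permutation p = 6.6e-04). Monocyte markers were higher by 1.48 ± 0.45 in 16 of 16 areas (adjusted exact permutation p = 5.3e-05), a list that includes Fn1 and S100a4, which fibroblasts also express.

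Single genes give the picture, as medians over areas and with no test. Mgp, a matrix protein of fibroblasts and mural cells, had 386 CPM in spots with and 39.4 in spots without border macrophage UMIs, and Igf2, a growth factor of the leptomeninges, 152 against 9.87. Aqp4, the water channel of astrocyte endfeet, had 214 against 66.7, while P2ry12 of microglia had 28.5 against 26.9. Prox1, a marker of DG granule neurons, was near equal at 22.7 against 24.0 and higher in 8 of 16 areas. Cd209a had 7.71 against 0.293 CPM, Ccl8 6.92 against 0.186 and Folr2 5.79 against 0.226. H2-Aa had 16.6 against 0.950 and Cd74 41.8 against 2.65, both higher in 16 of 16 areas.

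**Figure D5:**
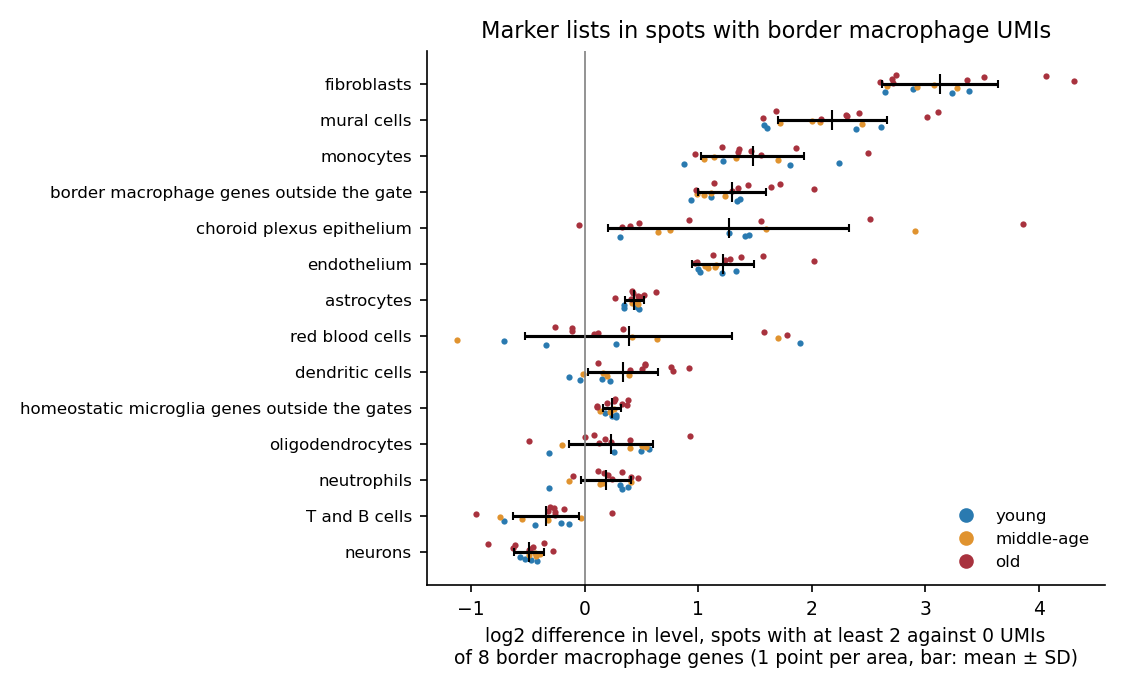
Mean log2 difference in the level of each marker list between spots with at least 2 and with 0 UMIs of 8 border macrophage genes, 1 point per Visium area, bar for mean ± SD of 16 areas. Fibroblast and mural markers lie furthest right, at 3.13 and 2.18, and neuronal markers lie below 0 in every area.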

How the data were processed

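The authors aligned the reads to mm10 and deposited UMI counts of 32285 genes per barcode, made with Cell Ranger 6.0.2 (scRNA-seq) and Space Ranger 1.2.0 (Visium) according to the headers of the deposited matrices. The 42478 deposited barcodes gave 39117 past the filter used here, where the design text states 34732 cells. That number counts the resident cell populations left after the study removed doublets and peripheral immune cells, so the populations are unlike. All 43134 deposited spots were used, where the design text states 42169 and the study removed spots with folds or damage. No doublet caller was used in the main analysis, since the gate limits genes of other cell types. Members and gene lists were chosen with earlier results of these data known.

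UMIs were summed per library and cell type and given as CPM, with exact binomial and Poisson intervals (95%, counting error only) and a floor of 3 UMIs. The intervals leave out the spread between mice and, for summed UMIs, the spread between cells. Visium UMIs were summed per area (34002419 to 91300054 UMIs) and tested with edgeR 4.0.16 (TMM, filterByExpr, quasi-likelihood, adjusted p under 0.05), with DESeq2 1.42.0, limma 3.58.1, R 4.3.3, Python 3.11.15, numpy 2.4.6, scipy 1.17.1, pandas 2.3.3 and scanpy 1.11.5 as further tools. Scripts were tested on simulated data. Same-numbered areas of different ages deviated together (r of 0.34 to 0.69 in 12 of 12 pairs), and 11 of 12 areas correlated best with their own number. Pairs with other numbers ranged from -0.72 to 0.69. The number, which the labels give, was therefore also fitted as a block in areas 1 to 4. Brain level differed between areas, and Ttr, a choroid plexus gene, had 0.755 CPM in young 1 and 7809 in young 2.

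Named genes were those with the largest ratio to microglia in the least favourable library (15 high, 10 low), by the same measure between ages (10 each), gate genes, called list members with the lowest p (10 per contrast), and the most abundant members of each list. Ms4a6c, Ccl6, Il1a, Il1b, Sall1 and further genes outside that rule were chosen after their values were seen.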

Additional observations from a re-analysis of the deposited data

Results flagged for a closer look

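Normalised CPM of 22 genes and 2 sums were looked at in the 3 ages of Visium areas, 72 groups in all, and 6 held an area far from the others of its age, where chance gives about 1 group in 20. No explanation was tested. F13a1 stood at 1.25 in old 5, with the next old area at 0.932. Cd209a stood at 1.07 in the same area, with the next at 0.779. Cbr2 stood at 1.49 in old 3, with the next at 0.998. Dab2 stood at 6.83 in old 2, with the next at 5.20. Cd209f stood at 0.976 in middle-age 4, with the next at 0.634. H2-Ab1 stood low in middle-age 3, at 0.799, with the next at 1.73.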

How the results depend on the processing

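Depth limits the values of the cells: the 28 old border macrophages hold 110170 UMIs, and 1 UMI in them is 9.08 CPM. The share ratios, the counts against microglia and the location of fibroblast, vessel and neuronal markers kept their direction under every alternative run. Genes at least 2 times as low in old numbered 49, but 23 with a gate floor of 12 UMIs, 16 without the monocyte-gene cells (chosen after seeing the data), 9 (and 4 higher) at a minimum of 100 UMIs and 10 with cells thinned to 2000 UMIs. With only 1 old library, 25 to 33 genes were higher and 112 to 155 lower, since a gene then had to pass in 1 library only, and the median log2 ratio old over young ranged from -5.46 to -0.35 for monocyte markers, from 1.31 to 1.94 for MHC class II and from -0.39 to 0.40 for homeostatic microglial genes. The share of old cells past the MHC class II limit was 7.69 to 23.1%. The MHC class II level, 5.97 times as high in old and 10.6 times in middle-age as in young cells, was 18.3 and 48.5 with the floor of 12, 11.8 and 21.7 without Scrublet doublets, and 32.5 and 51.4 without the monocyte-gene cells. At 10 UMIs the young share of MHC class II cells was 0. For these shifts the cause was not tested.

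With spots of at least 1 UMI, oligodendrocyte markers differed by 0.00 (adjusted p = 0.985 by the exact permutation test) and red blood cell markers by -0.00, and with at least 3 UMIs oligodendrocyte markers by 0.23 (0.0843) and neutrophil markers by 0.22 (0.0522, exact permutation test). Red blood cells ranged from 0.29 to 0.49 without 1 area.

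From middle-age to old in the areas, DESeq2 called 735 genes higher and 470 lower, 3 border macrophage genes and 2 of MHC class II higher, and its size factors in edgeR gave 2 border macrophage genes higher. Without the filter on low counts 1 gate gene fell in old and 1 in middle-age, and no MHC class II gene rose from middle-age to old. The replicate block gave 1 MHC class II gene lower in old (Cd40), 5 border macrophage genes lower in middle-age and 2 lower, with no MHC class II gene higher, from middle-age to old (Cd38 and Gas6, which were also called lower in old). Beside these and the genes named with it above, the block added Dcn and Ogn to the fibroblast genes lower in old and Slc6a13 and Ogn to those lower in middle-age, took away the rise of Cd86 from middle-age to old, and changed no other call among the gate, border macrophage, MHC class II and fibroblast genes. Areas 1 to 4 without the replicate block, a fit with 4 fewer areas added after seeing the data, gave 430 genes higher and 532 lower in old (border macrophage genes 1 and 1, gate genes 1 lower), 364 and 444 in middle-age (gate genes 0), and 93 and 32 from middle-age to old (border macrophage and MHC class II genes 0). Leaving out 1 area gave 601 to 1065 higher and 646 to 1178 lower in old (border macrophage genes 2 to 3 and 2 to 4, gate genes 1 to 3 lower), 265 to 634 and 343 to 815 in middle-age (border macrophage genes 0 to 1 and 1 to 5, gate genes 0 to 2 lower), and 182 to 464 and 98 to 396 from middle-age to old (border macrophage genes 0 to 2 and MHC class II 0 to 1 higher).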
